A study of Homo sapiens with 6 samples.

Results

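Integrins, laminins and focal adhesion proteins were followed as a set of 32 genes, taken from the deposited count table by gene symbol. The set held 7 integrin alpha chains, 6 integrin beta chains, 7 laminin chains, 11 proteins of the focal adhesion and ICAM1, a cell surface ligand of integrins. All 32 were found among the 28675 genes of the table, and 30 had enough reads to be tested. The libraries came from MDA-MB-231, an established human cell line from a triple-negative breast cancer, which lacks the oestrogen and progesterone receptors and has little HER2. In 3 of the libraries the cells overexpressed LARP6, a La-related protein that binds RNA, and in the other 3 the cells carried what the labels call a no-load control. The labels do not give the vector, the time after its introduction, or whether the cells were a clone, and no other treatment is named for either group. The study asked which RNAs LARP6 binds and how it changes their splicing, and the values described here are RNA levels per gene.

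Integrins are receptors built from an alpha and a beta chain that hold a cell to the extracellular matrix. Laminins are cross-shaped matrix proteins of the basement membrane, each built from an alpha, a beta and a gamma chain. Among the integrins that bind them are the pair of alpha 3 with beta 1 and those of alpha 6 with beta 1 or beta 4. Inside the cell, most beta chains bind talin and kindlin and are joined through them to actin in focal adhesions, whereas beta 4 binds plectin and joins the cell to keratin filaments in hemidesmosomes. Basal-type breast cells and the cancer lines that resemble them are known for high levels of laminin-binding integrins.

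The 3 LARP6 libraries held 29409101 to 31648120 counts and the 3 control libraries 29723790 to 33387050 counts. LARP6 itself had 1995, 2198 and 2131 CPM (read counts normalised to library size with edgeR's TMM factors) in LARP6 libraries 1, 2 and 3, against 44.2, 40.7 and 43.3 CPM in control libraries 1, 2 and 3, so each library matched its label. Markers of the line (EGFR, VIM, CD44, CAV1 and AXL) summed to 5415 to 5531 CPM in LARP6 libraries and 5197 to 5293 CPM in control libraries, and ESR1, the oestrogen receptor gene, had at most 1 count in any library. Other genes expected to be low were not all absent. PGR, the progesterone receptor gene, had at most 7 counts. ERBB2, the gene of HER2, had means of 54.9 and 57.2 CPM in LARP6 and control libraries, GATA3 10.2 and 11.4 CPM, and CDH1 7.29 and 7.92 CPM. Of the other cell types looked for, 5 leukocyte markers in the table summed to 33.5 to 34.6 CPM in LARP6 libraries and 35.6 to 38.3 CPM in control libraries. Most of that sum was the integrin chain gene ITGB2, while PTPRC, which defines leukocytes, stayed below 0.5 CPM in each library, and CD3E had at most 1 count. The summed endothelial and fibroblast markers overlapped between the groups, at 8.07 to 9.90 and 4.996 to 6.02 CPM in LARP6 libraries against 7.998 to 10.8 and 4.998 to 6.70 CPM in control libraries. Libraries of a group differed by 2.06 to 3.62 in chi-square per gene and libraries of different groups by 7.39 to 10.996, and control library 3 stood farthest from the others of its group. LARP6 itself was among these genes and adds to the values between groups, and its part was not separated.

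Of the 30 tested genes, 5 were higher in LARP6 libraries (ITGB4, LAMA3, ITGA2, ITGA6 and LAMB1) and 4 were lower (ICAM1, ZYX, ACTN1 and TLN1) at an edgeR adjusted p below 0.05. Across all 16226 genes tested, 6.03% passed, with 2.43% higher and 3.6% lower. The genes of the set were mostly well expressed, where a given change is easier to detect, so the count was also set beside genes with a mean of at least 20 CPM. At that level 9 of 27 members passed (33.3%), against 10.3% of all such genes. All 5 higher genes were integrin or laminin chains, which gave 5 higher and 0 lower of 18 tested. Alpha, beta and laminin chains had been planned as separate groups, and joining them was not part of that plan. Apart, 2 of 6 alpha, 1 of 5 beta and 2 of 7 laminin chains tested were higher, with 0 lower in each. No chain fell at an unadjusted edgeR p below 0.05 in this fit either. DESeq2 called 1 of these chains higher and 0 lower, and limma-voom called 5 higher and 0 lower. In an edgeR fit with offsets for GC content and length, ITGA1 was at -0.13 (log2, unadjusted p = 0.0408, adjusted p = 0.296). The 4 genes called lower were 3 focal adhesion proteins and ICAM1. The changes were small: apart from ICAM1, the called genes differed by less than 12% between the group means. The median log2 difference was 0.034 over the 30 genes and 0.0038 over all genes tested, with 17 positive and 13 negative.

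**Figure D1:**
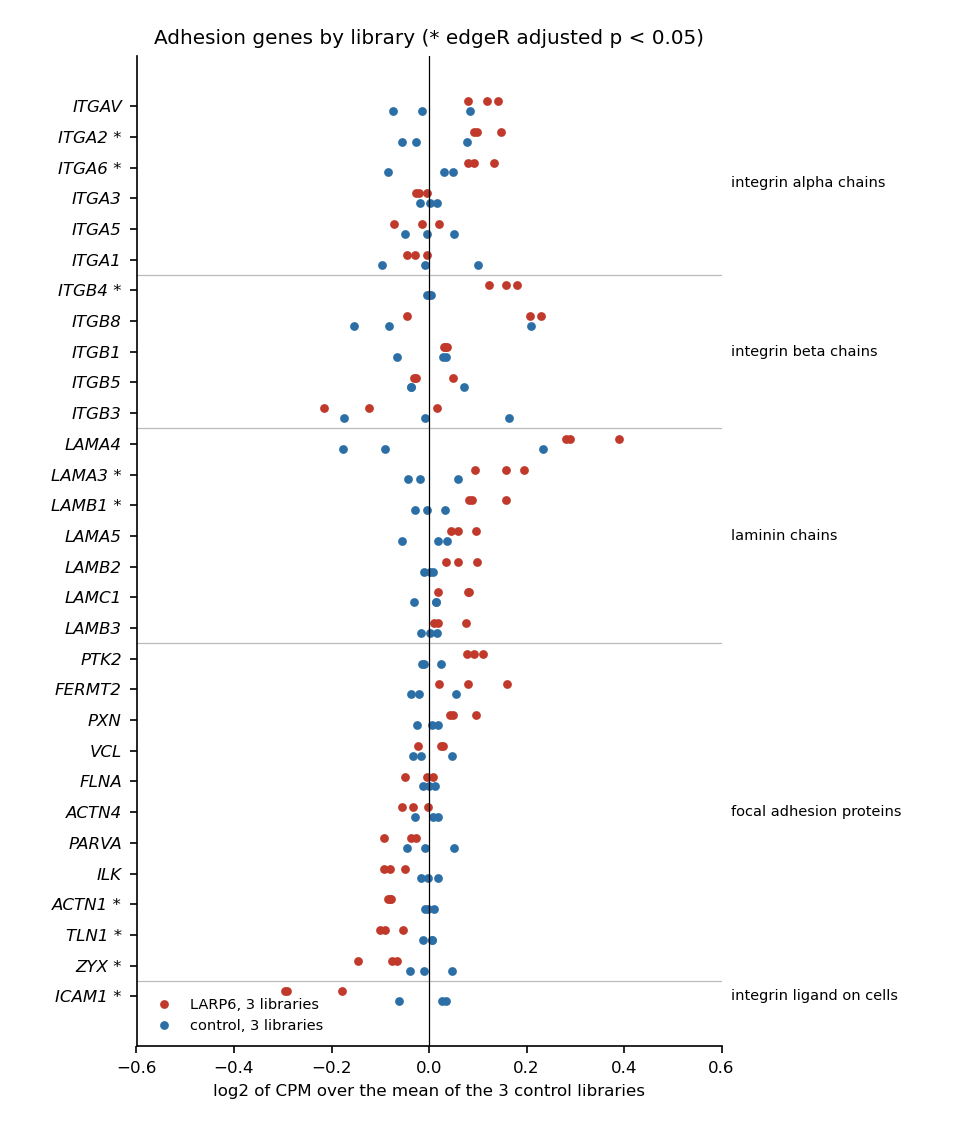
Level of the 30 tested adhesion genes in each library, as log2 of its CPM over the mean of the 3 control libraries (x axis), with a gene on each line and LARP6 and control libraries in different colours. Asterisks mark the 9 genes with an edgeR adjusted p below 0.05. The laminin chains of LARP6 libraries lie mostly to the right of those of control libraries, and ICAM1 lies farthest to the left.

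In 16 of the 30 genes the 3 LARP6 libraries did not overlap the 3 control libraries, 11 with LARP6 higher and 5 with LARP6 lower. The groups did not overlap in 22.3% of all genes tested, and in 29.4% of those with a mean of at least 20 CPM, against 15 of the 27 members at that level. The non-overlapping genes that missed the test were LAMA4, LAMA5, LAMB2, LAMC1, PXN and PTK2, higher in LARP6 libraries, and ILK, lower in them.

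Changes across all genes followed the make-up of the transcripts, and the called genes differ in it. In the quartile of genes with the lowest GC content of the longest transcript, the median log2 difference was 0.057, with 4.56% called higher and 0.349% lower. In the third quartile, from 48.6% to 56.4% GC, it was -0.023, with 1.5% called higher and 4.16% lower. In the quartile with the highest GC content it was -0.052, with 0.623% called higher and 8.55% lower. By length, the median was -0.037 in the quartile of the shortest transcripts, with 0.722% called higher and 5.73% lower. It was 0.043 in that of the longest, which began at 5015 bases, with 4.76% called higher and 1.55% lower. The 5 higher members had a median GC content of 49.5% and a median length of 5919 bases, and the 4 lower members had 57.3% and 3963 bases. ITGB4 went against the GC trend, with 63.7% GC, and LAMA3 (50.7%) and LAMB1 (49.5%) lay in the third GC quartile. Each of the 5 higher members had at least 5618 bases. In a fit with offsets for GC content and length, 6 members passed (3.71% of all genes did): ITGB4 and PXN higher, and ICAM1, ACTN1, TLN1 and PARVA lower. DESeq2 called 4 members (7.08% of the genes it adjusted): ITGB4 higher, and ICAM1, ACTN1 and TLN1 lower. Scaled by library size only, 9 members were higher and 1, ICAM1, was lower (4.23% and 1.87% of all genes). Of all genes, 5.73% passed in limma-voom, 2.9% with no low-count filter, 2.73% at an adjusted p below 0.01, 8.29% with a replicate block, 4.48% with that block and the offsets, and 2.76% to 6.3% without single libraries. The limma tests of FPKM passed few genes, at 0.345% on log2(FPKM + 1), 0.0106% on the same scale with no filter and 0.401% on log2(FPKM + 0.1).

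**Figure D2:**
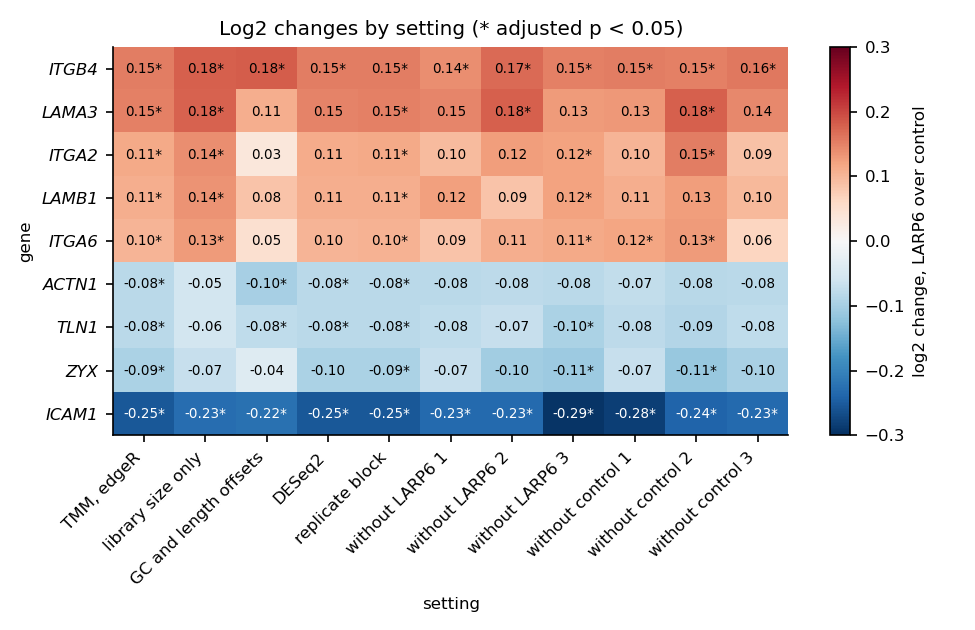
Heat map of the log2 difference (LARP6 over control) of the 9 called genes (lines) in the edgeR test with TMM scaling and in 10 alternative fits (columns), red for higher and blue for lower in LARP6 libraries. Asterisks mark an adjusted p below 0.05: ITGB4 and ICAM1 carry them in all 6 fits that leave out a library, and no gene changes sign.

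Among the integrin alpha chains, ITGA3 RNA was by far the most abundant. On the authors' FPKM scale, which divides by a gene length that is not given, it had 104 ± 0.646 in LARP6 libraries and 103 ± 1.62 in control libraries (SD, n = 3 each). ITGA6 followed at 30.2 ± 0.535 and 27.6 ± 1.45 FPKM, ITGA5 at 21.1 ± 0.662 and 21.0 ± 0.629 FPKM, and ITGA2 at 11.2 ± 0.216 and 10.2 ± 0.502 FPKM. Alpha 3 and alpha 6 receive laminins, alpha 5 fibronectin, and alpha 2 collagens and laminins. ITGAV, the chain of receptors for vitronectin and other ligands with an RGD motif, had 6.60 ± 0.145 and 5.99 ± 0.341 FPKM. ITGA1, a chain of collagen receptors, had 1.14 ± 0.01 and 1.14 ± 0.0755 FPKM. No neighbours in this order overlapped in any library of a group. Counts and FPKM imply lengths above the longest GENCODE transcript, at 11.1 kb against 5.48 kb for ITGA3 and 7.57 kb against 5.62 kb for ITGA6. Divided by the longest transcript instead, the means kept this order, led by ITGA3 at 67.9% of the summed alpha chain level in LARP6 libraries. ITGA4, the alpha 4 chain of leukocyte and neural crest receptors, had 0 counts in the 3 LARP6 libraries, where a count of 0 allows up to 0.0946 to 0.101 CPM, and 0, 0 and 5 counts in the control libraries. It was not tested.

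Of the 6 alpha chains tested, ITGA2 and ITGA6 rose, no chain fell and 4 did not pass. ITGA6 (chromosome 2 from 172427354 to 172506282 on the plus strand of GRCh38, by GENCODE v29, as are the positions below) had 231.5, 224.8 and 223.0 CPM in LARP6 libraries 1, 2 and 3, against 215.6, 218.2 and 199.0 CPM in control libraries 1, 2 and 3. The groups did not overlap, and control library 3 was the lowest of the 6. The log2 difference was 0.10 ± 0.03 (SE, edgeR adjusted p = 0.0201), and the call was lost without LARP6 library 1 (adjusted p = 0.170), LARP6 library 2 (0.0602) or control library 3 (0.271, at a log2 difference of 0.06). With GC and length offsets it was 0.05 (edgeR adjusted p = 0.406). ITGA2 (chromosome 5, 52989326 to 53094779, plus strand) had 101.9, 98.1 and 98.5 CPM in the LARP6 libraries and 90.4, 97.2 and 88.6 CPM in the control libraries. The lowest LARP6 library lay just above control library 2. On the log2 scale the difference was 0.11 ± 0.04 (SE, edgeR adjusted p = 0.0414), and it was 0.03 with GC and length offsets (adjusted p = 0.699). Its call was lost without LARP6 library 1 (adjusted p = 0.228), LARP6 library 2 (0.0821), control library 1 (0.129) or control library 3 (0.218).

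The other alpha chains did not pass. ITGAV had 61.2, 59.5 and 62.2 CPM in LARP6 libraries and 55.7, 59.7 and 53.5 CPM in control libraries, a log2 difference of 0.12 ± 0.04 (SE, edgeR adjusted p = 0.0936). Control library 2 was above the lowest LARP6 library. Without that control library the call was gained, at 0.16 (adjusted p = 0.0421). ITGA3, the chain with the most RNA, had 1144 ± 9.18 CPM in LARP6 libraries and 1158 ± 14.2 CPM in control libraries (SD, n = 3 each), a difference of -0.02 ± 0.02 (log2, SE). The differences of ITGA5 (-0.02 ± 0.03) and ITGA1 (-0.03 ± 0.06) were also smaller than their errors, and the sign of each of these 3 genes changed with the scaling. With GC and length offsets ITGA1 was at -0.13 (edgeR adjusted p = 0.296).

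Among the beta chains, ITGB4 rose and was the integrin gene with the smallest p. It lies on chromosome 17 from 75721328 to 75757818 on the plus strand, and encodes the hemidesmosomal partner of alpha 6. It had 161.5, 155.3 and 159.1 CPM in LARP6 libraries 1, 2 and 3, against 142.7, 142.1 and 143.1 CPM in control libraries 1, 2 and 3. The lowest LARP6 library was well above the highest control library. The means were 158.6 ± 3.16 and 142.6 ± 0.459 CPM (SD, n = 3 each), and the log2 difference was 0.15 ± 0.03 (SE, edgeR adjusted p = 0.000272). It passed without each library in turn, at differences of 0.14 to 0.17, and was larger with GC and length offsets, at 0.18 (edgeR adjusted p = 2.92e-06). In a test of log2(FPKM + 1), where 0.345% of genes passed, its adjusted p in limma was 0.0507. GALK1, a galactokinase gene that overlaps ITGB4 on the opposite strand, had a mean of 34.2 CPM and a log2 difference of -0.05 (edgeR adjusted p = 0.688). The strand setting of the authors' counting is not given, so reads of the pair may not be fully separated.

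The other beta chains did not pass. ITGB1, the shared partner of most alpha chains, had 414.4, 415.5 and 413.8 CPM in LARP6 libraries, against 413.2, 414.8 and 386.7 CPM in control libraries. Apart from control library 3, all libraries were within a few CPM of each other. The log2 difference was 0.03 ± 0.03 (SE, edgeR adjusted p = 0.531) and turned to -0.03 with GC and length offsets. ITGB5, the beta 5 partner of alpha V, had 179.0 ± 5.73 CPM in LARP6 libraries and 179.3 ± 7.81 CPM in control libraries (SD, n = 3 each), with a difference near 0 that changed sign with the scaling. ITGB3, the beta 3 partner of alpha V, differed by -0.10 ± 0.10 and ITGB8, a chain known for activating latent TGF-beta, by 0.14 ± 0.20 (log2, SE), both at low levels. ITGB6, the epithelial beta 6 chain, had 8, 8 and 3 counts in LARP6 libraries and 3, 4 and 3 counts in control libraries and was not tested.

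ITGB1, ITGB5 and ITGB4 had similar FPKM values. In LARP6 libraries they were 25.3 ± 0.0751, 24.4 ± 0.820 and 20.9 ± 0.389 FPKM, and in control libraries 24.3 ± 1.02, 24.1 ± 0.969 and 18.4 ± 0.101 FPKM (SD, n = 3 each). ITGB1 and ITGB5 overlapped in both groups, and ITGB4 lay below both. This order rests on the lengths the authors used: the deposited counts and FPKM imply 16.5 kb for ITGB1, whose longest GENCODE transcript is 3.78 kb, and 7.66 kb for ITGB4, whose longest is 5.92 kb. Divided by the longest transcript instead, ITGB1 made up 60.9% of the summed beta chain level in LARP6 libraries and 61.2% in control libraries.

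Shares, here and above, were taken within the 7 alpha chains and the 6 beta chains of the set. Other chains are not in these sums, among them ITGB2, at 3.78 and 4.1 FPKM in LARP6 and control libraries. ITGB4 made up 28.98% ± 0.512 of the summed beta chain FPKM in LARP6 libraries and 27.0% ± 0.110 in control libraries (SD, n = 3 each). Each LARP6 library was above each control library. The difference of 1.96 percentage points had an exact two-sided permutation p of 0.1, the smallest that 3 against 3 libraries can give, and 0.325 after Benjamini-Hochberg adjustment over 13 chains. Per longest transcript the shares were 14.9% and 13.8%. ITGA6 made up 17.3% ± 0.166 of the alpha chains in LARP6 libraries and 16.3% ± 0.697 in control libraries, and ITGA3 59.7% ± 0.307 and 61.0% ± 0.864, both without overlap and both at an exact permutation p of 0.1 (0.325 adjusted). ITGA2 made up 6.45% ± 0.0768 and 6.02% ± 0.273, at the same p-values. Per longest transcript the exact permutation p stayed at 0.1 for ITGB4, ITGA6 and ITGA2 and was 0.2 for ITGA3. A share moves when any chain of its class moves, so the shares of a class are not independent.

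**Figure D3:**
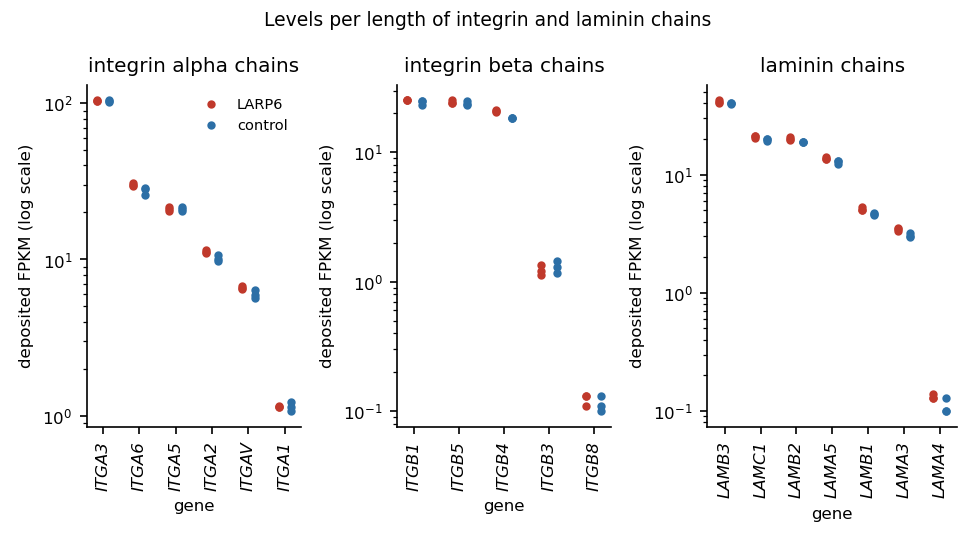
FPKM of the integrin and laminin chains on a log axis, with a point for each library and LARP6 libraries beside control libraries for each chain. ITGA3 leads the alpha chains at 104 FPKM in LARP6 libraries and LAMB3 the laminin chains at 41.4 FPKM.

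All 7 laminin chains had a positive difference, and 2 of them, LAMA3 and LAMB1, passed the test. The median log2 difference was 0.07, and the groups did not overlap in 6 of the 7 chains, LAMB3 being the exception (22.3% of all genes tested, and 10.6% with LARP6 higher). DESeq2 and the fit with GC and length offsets called 0 laminin chains, while 3 and 5 had an unadjusted p below 0.05 in DESeq2 and in edgeR. LAMA3 (chromosome 18, 23689443 to 23956222, plus strand) encodes the alpha chain of laminin-332, the anchor of hemidesmosomes. It had 56.5, 54.1 and 57.9 CPM in LARP6 libraries 1, 2 and 3, against 49.1, 52.7 and 49.98 CPM in control libraries 1, 2 and 3. LARP6 library 2 and control library 2 came closest to each other. Its log2 difference was 0.15 ± 0.04 (SE, edgeR adjusted p = 0.0231). The call was lost without LARP6 library 1 (adjusted p = 0.0981), LARP6 library 3 (0.107), control library 1 (0.104) or control library 3 (0.0664), and with GC and length offsets (0.156).

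LAMB1 (chromosome 7, 107923799 to 108003255, minus strand), the beta 1 chain of laminin-511 and related forms, had 104.4, 110.1 and 104.8 CPM in LARP6 libraries, against 98.4, 100.9 and 96.7 CPM in control libraries. LARP6 library 2 was the highest and the groups did not overlap. LAMB1 differed by 0.11 ± 0.04 (SE, edgeR adjusted p = 0.0405). It passed without LARP6 library 3 (adjusted p = 0.0371), and without any of the other libraries the adjusted p was 0.0551 to 0.286. DLD, which overlaps it on the opposite strand, had a mean of 98.9 CPM and a log2 difference of 0.01 (edgeR adjusted p = 0.960).

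LAMB3, the beta chain that joins LAMA3 in laminin-332, had more RNA than LAMA3. It had 41.4 ± 1.09 FPKM in LARP6 libraries and 39.8 ± 0.442 FPKM in control libraries, and LAMA3 had 3.45 ± 0.121 and 3.06 ± 0.108 FPKM (SD, n = 3 each). LAMB3 differed by 0.03 ± 0.03 (edgeR adjusted p = 0.567) and did not pass. Whether its response differs from that of LAMA3 was not tested. The chains of laminin-511 and laminin-521 were all above 4 FPKM: LAMA5 had 13.7 ± 0.270 and 12.8 ± 0.437 FPKM in LARP6 and control libraries, LAMB2 20.1 ± 0.465 and 18.9 ± 0.0351, LAMC1 21.0 ± 0.501 and 19.8 ± 0.395, and LAMB1 5.09 ± 0.157 and 4.64 ± 0.105. Counts and FPKM imply 21.1 kb for LAMB1, whose longest GENCODE transcript is 5.77 kb. For LAMA5, LAMB2 and LAMC1 they imply 16.2, 7.77 and 9.57 kb, against 11.4, 5.67 and 7.89 kb. The low FPKM of LAMB1 rests on that length, so these chains were not ranked. LAMA5, LAMB2 and LAMC1 differed by 0.07, 0.06 and 0.06 (log2, each with an SE of 0.03) and did not pass, with edgeR adjusted p of 0.174 to 0.242. LAMA4, the alpha chain of vessel and muscle laminins, was at a low level, with 54, 59 and 57 counts in LARP6 libraries and 53, 41 and 43 counts in control libraries (edgeR adjusted p = 0.438).

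A motif of AP-1, the dimer of FOS and JUN proteins known to control LAMA3 in keratinocytes, was looked for because LAMA3 was the laminin chain with the largest called difference. Promoters were taken from RefSeq on GRCh38.p14 as the 250 bases before a transcript start, and 27 of the 32 members had an entry there. The sequence below lies at chr18:23872770-23873019 on the plus strand and belongs to the inner start site of LAMA3, and its capitals mark the letters TGANTCA at 125 to 119 and at 69 to 63 bases before the start.
LAMA3 promoter: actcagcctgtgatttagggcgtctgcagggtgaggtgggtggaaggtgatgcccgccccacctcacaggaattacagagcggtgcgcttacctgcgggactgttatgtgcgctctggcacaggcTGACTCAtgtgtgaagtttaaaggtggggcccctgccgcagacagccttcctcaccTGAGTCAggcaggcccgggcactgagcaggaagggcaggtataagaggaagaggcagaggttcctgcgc
TGANTCA, read on both strands, occurred in 6.57% of 35116 promoters of this length, and among the members in those of LAMA3, LAMB3 and ACTN4. LAMA3 rose, LAMB3 did not pass and ACTN4 did not pass. The motif was chosen after the values had been seen, and a match describes the sequence and is not a binding site.

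Among the 11 focal adhesion proteins, ACTN1, TLN1 and ZYX fell, none rose and 8 did not pass. No member of this group that was higher passed in DESeq2 or limma-voom, and 2, PXN and PTK2, had an unadjusted edgeR p below 0.05. The median log2 difference was -0.03, and the groups did not overlap in 6 genes, of which 4 were lower and 2 higher in LARP6 libraries (11.7% and 10.6% of all genes tested). Scaled by library size only, 0 passed as lower and 2, PXN and PTK2, as higher, and of the 11 genes FLNA alone changed sign. ACTN1 (chromosome 14, 68874143 to 68979440, minus strand) encodes alpha-actinin 1, which crosslinks actin filaments. It had 469.9, 468.4 and 470.3 CPM in LARP6 libraries 1, 2 and 3, against 500.3, 495.6 and 493.9 CPM in control libraries 1, 2 and 3. Both groups were tight and well apart, at a log2 difference of -0.08 ± 0.03 (SE, edgeR adjusted p = 0.0414). No fit with 5 libraries called it, at adjusted p of 0.0532 to 0.184 and differences of -0.07 to -0.08.

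TLN1 (chromosome 9, 35696948 to 35732395, minus strand) encodes talin 1, which binds integrin tails and switches them to the active form. It had 350.3, 347.4 and 359.1 CPM in LARP6 libraries, against 374.4, 369.6 and 374.1 CPM in control libraries. The groups did not overlap, and LARP6 library 3 came closest to the controls. The log2 difference was -0.08 ± 0.03 (SE, edgeR adjusted p = 0.0486). Without LARP6 library 3 it passed (adjusted p = 0.0246), and without any of the other libraries the adjusted p was 0.108 to 0.264. ZYX (chromosome 7, 143381080 to 143391111, plus strand) encodes zyxin, a sensor of tension on actin fibres. It had 178.2, 187.3 and 188.6 CPM in LARP6 libraries, against 203.9, 191.9 and 196.0 CPM in control libraries. The highest LARP6 library lay close below control library 2. ZYX had a log2 difference of -0.09 ± 0.03 (SE, edgeR adjusted p = 0.0383), which was -0.04 with GC and length offsets (adjusted p = 0.546). The call was lost without LARP6 library 1 (adjusted p = 0.320), LARP6 library 2 (0.0932), control library 1 (0.243) or control library 3 (0.0562).

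The RNA of the actin crosslinkers was abundant and differed little. FLNA, which encodes filamin A, had 1268 ± 26.9 CPM in LARP6 libraries and 1282 ± 11.2 CPM in control libraries, and ACTN4, which encodes alpha-actinin 4, had 1008 ± 18.7 and 1029 ± 17.8 CPM (SD, n = 3 each). Their log2 differences of -0.02 and -0.03 were about the size of the errors (SE 0.02 each), and that of FLNA changed sign with the scaling. PXN, which encodes the scaffold paxillin, had 361.5, 360.2 and 374.0 CPM in LARP6 libraries and 354.2, 343.4 and 351.0 CPM in control libraries. These groups did not overlap, and the gene passed with GC and length offsets (log2 0.09, edgeR adjusted p = 0.0120) but not in the test without them (0.06 ± 0.03, SE, adjusted p = 0.161). PTK2, the gene of focal adhesion kinase, had 99.1, 100.4 and 98.1 CPM in LARP6 libraries and 92.4, 94.6 and 92.0 CPM in control libraries, again without overlap (0.09 ± 0.04, SE, edgeR adjusted p = 0.103).

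The genes of the ILK, PINCH and parvin complex that were members, ILK and PARVA, did not pass. ILK had 209.2, 207.5 and 213.9 CPM in LARP6 libraries and 218.7, 220.8 and 223.9 CPM in control libraries, without overlap (log2 -0.07 ± 0.03, SE, edgeR adjusted p = 0.117). PARVA, which encodes alpha-parvin, had 108.8, 113.1 and 113.8 CPM in LARP6 libraries and 112.3, 115.3 and 120.1 CPM in control libraries, which overlapped. It passed with GC and length offsets (log2 -0.11, edgeR adjusted p = 0.0267), against -0.05 without them (adjusted p = 0.436). FERMT2, the gene of the integrin activator kindlin-2, differed by 0.09 ± 0.05 (edgeR adjusted p = 0.298) and VCL, the gene of vinculin, by 0.01 ± 0.03 (adjusted p = 0.890), and both turned negative with GC and length offsets.

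A CArG box, the motif of serum response factor, which is known to control genes of the actin cytoskeleton, was looked for in the same promoters, again after the values had been seen. It occurred in 1.16% of the 35116 promoters and in 3 of the 39 promoter entries of the members, 1 each of ACTN1, FLNA and ITGB6. Here too a match describes the sequence and is not a binding site. The ACTN1 sequence is shown because ACTN1 is the called gene with this motif. Of the 4 RefSeq promoter entries of the gene, only this 1 holds the box. It lies at chr14:68977567-68977816 on the minus strand, inside the gene as GENCODE places it. The sequence is written in the direction of transcription, with the box in capitals at 171 to 162 bases before the start.
ACTN1 promoter: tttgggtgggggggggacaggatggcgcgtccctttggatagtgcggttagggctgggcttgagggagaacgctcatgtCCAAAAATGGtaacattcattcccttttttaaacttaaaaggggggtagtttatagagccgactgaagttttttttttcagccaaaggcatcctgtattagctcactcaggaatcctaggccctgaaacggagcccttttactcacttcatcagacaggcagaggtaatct

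**Figure D4:**
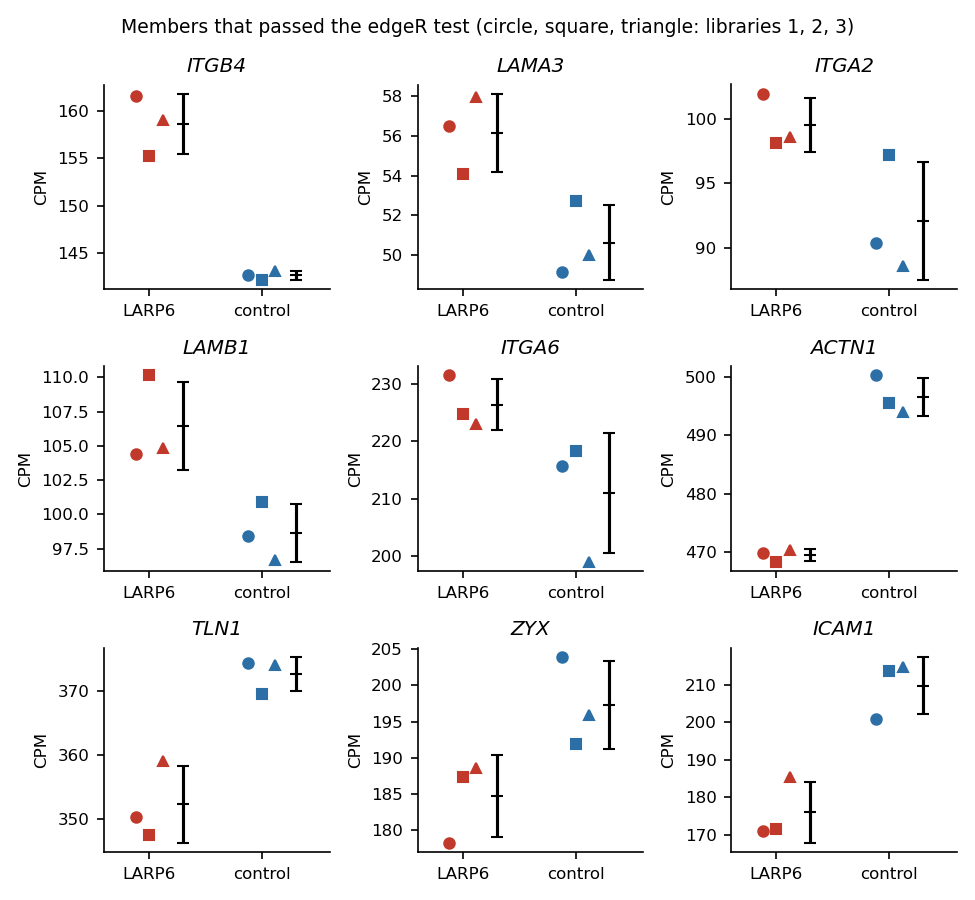
CPM of the 9 called genes, with a panel for each gene, LARP6 libraries on the left and control libraries on the right, a different symbol for libraries 1, 2 and 3, and a bar for the mean ± SD (n = 3). The y axes do not start at 0. No panel has overlapping groups, and the gap between the groups is narrowest in ITGA2.

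ICAM1 had the largest called change of the set and fell by 16.1%. It lies on chromosome 19 from 10270835 to 10286615 on the plus strand, and encodes the cell surface protein that leukocytes bind through the beta 2 integrins, known as a gene induced by inflammatory cytokines through NF-kB. It had 171.0, 171.5 and 185.4 CPM in LARP6 libraries 1, 2 and 3, against 201.0, 213.6 and 214.9 CPM in control libraries 1, 2 and 3. The groups were clearly apart, with LARP6 library 3 the highest of its group and control library 1 the lowest of its own. The means were 176.0 ± 8.18 and 209.8 ± 7.68 CPM (SD, n = 3 each), and the log2 difference was -0.25 ± 0.03 (SE, edgeR adjusted p = 1.35e-10). It was -0.23 to -0.29 without each library in turn, and passed each time. It also passed in every other count fit, with -0.22 under GC and length offsets. It did not pass in the limma tests of FPKM, at -0.23 and an adjusted p of 0.0824 on log2(FPKM + 1). In bulk libraries, fewer cells with ICAM1 and less ICAM1 RNA per cell cannot be told apart. The summed leukocyte markers were also lower in LARP6 libraries, at 33.5 to 34.6 CPM against 35.6 to 38.3 CPM in control libraries, with ITGB2 at 29.2 ± 0.880 CPM in LARP6 libraries and 32.2 ± 1.03 CPM in control libraries, and CD68 at 4.35 ± 0.275 and 4.13 ± 0.453 CPM (SD, n = 3 each). PTPRC stayed below 0.5 CPM and CD3E at no more than 1 count in both groups, and the part of these markers in the ICAM1 result was not tested.

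The ICAM1 promoter is printed because the gene carries the largest change and holds a motif of NF-kB. It lies at chr19:10270870-10271119 on the plus strand, and the capitals mark the letters GGAANTTCC at 186 to 178 bases before the start. The RefSeq start used here is farther in than the GENCODE start given above, so these bases lie inside the gene as GENCODE places it.
ICAM1 promoter: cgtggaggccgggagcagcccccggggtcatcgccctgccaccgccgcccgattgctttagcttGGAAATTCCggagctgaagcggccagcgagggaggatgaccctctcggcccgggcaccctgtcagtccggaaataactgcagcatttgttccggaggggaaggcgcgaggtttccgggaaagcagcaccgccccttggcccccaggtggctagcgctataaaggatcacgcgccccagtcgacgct
GGAANTTCC occurred in 0.826% of 35116 promoters, and ICAM1 was the only member with it. A related form, GGG followed by any 2 bases and TTTCC, occurred in 1.73% of promoters and in that of ZYX among the members. These matches describe the sequence and are not binding sites, and a part of NF-kB in the differences was not tested.

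ICAM1 is followed on the same strand by ICAM4, whose start is 351 bases after its end, and by ICAM5, which starts 1458 bases after ICAM4. ICAM5, which encodes a neuronal adhesion molecule, had 1.64, 1.18 and 1.92 CPM in LARP6 libraries, against 2.30, 2.95 and 3.14 CPM in control libraries, without overlap. The log2 difference was -0.82 ± 0.20 (SE, edgeR adjusted p = 0.00273), and the call was lost without LARP6 library 2 (adjusted p = 0.0689). It rests on 146 counts in LARP6 libraries and 260 counts in control libraries, and DESeq2 gave no adjusted p for it. ICAM4, the erythroid member of the family, had 284 and 301 counts and did not pass (log2 -0.07 ± 0.16, SE, edgeR adjusted p = 0.864).

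**Figure D5:**
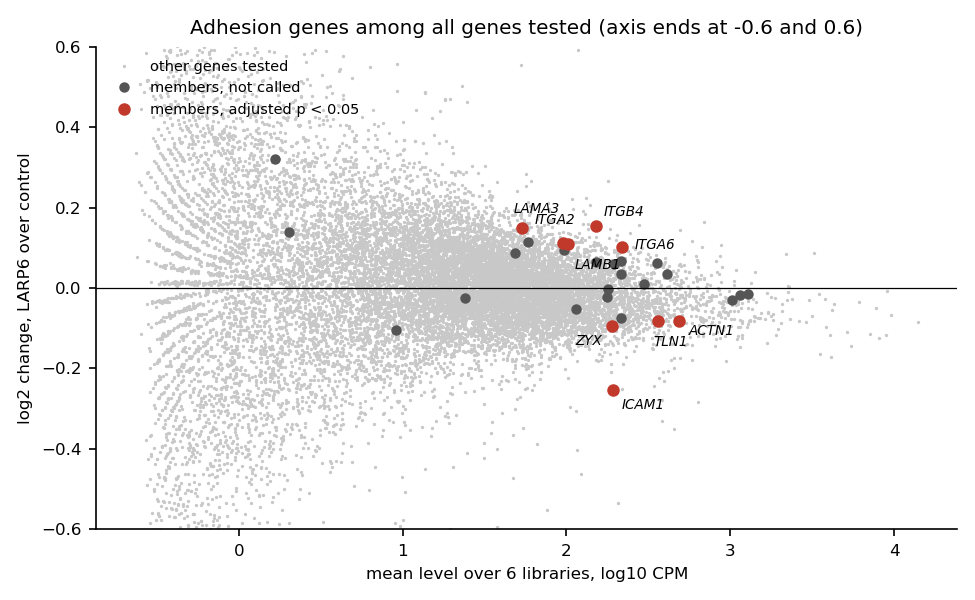
Log2 difference (LARP6 minus control) against the mean level (log10 CPM) of the 16226 genes tested, with the y axis ending at -0.6 and 0.6, the 30 adhesion genes marked and the 9 called ones named. ICAM1 stands lowest of the members at -0.25, and the called chains sit at 0.10 to 0.15.

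Other genes of adhesion were counted in 8 lists of 137 genes, of which 117 were tested. Of these, 7 were higher, 8 were lower and 102 did not pass, beside 2.43% higher and 3.6% lower among all genes tested, and the median log2 difference was 0.012. Without single libraries there were 3 to 8 higher and 5 to 8 lower. The higher count was 3 when either LARP6 library 1 or LARP6 library 2 was left out and 4 when control library 1 was, and the lower count was 5 when either LARP6 library 2 or control library 3 was left out. Scaled by library size only, 19 were higher and 7 lower, beside 4.23% and 1.87% of all genes.

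Partners of integrins in the membrane and the hemidesmosome held the most calls, with 1 higher and 4 lower of 13 tested. PLEC, whose product plectin joins beta 4 to keratin filaments, rose to 696 ± 16.8 CPM in LARP6 libraries, against 648 ± 18.5 CPM in control libraries (log2 0.10 ± 0.03, SE, edgeR adjusted p = 0.00526), and lost its call without control library 2 (0.133). The tetraspanin CD82 fell to 159.6 ± 3.39 CPM, against 178.1 ± 4.89 CPM in control libraries (-0.16 ± 0.03, SE, edgeR adjusted p = 0.00011). The tetraspanin CD81 fell by 0.13 (edgeR adjusted p = 0.00129) and the glycoprotein gene BSG, which encodes basigin, by 0.12 (0.000643). These 3 genes passed without each library in turn. With GC and length offsets BSG did not pass, at -0.056 (edgeR adjusted p = 0.126), and CD82 passed at -0.11 (0.0135). SLC3A2, the gene of the CD98 heavy chain that binds beta tails, fell by 0.09 (adjusted p = 0.0331) and is named although the rule took the 4 smaller p-values of its list. It lost its call without LARP6 library 1 (adjusted p = 0.154), LARP6 library 2 (0.204), control library 1 (0.0572) or control library 3 (0.255), with library size only (0.145), and with GC and length offsets (0.433, at -0.043). CD151, the tetraspanin known as a partner of alpha 3 and alpha 6 integrins, had 561 ± 15.3 CPM in LARP6 libraries and 578 ± 9.04 CPM in control libraries and did not pass (-0.04 ± 0.03, adjusted p = 0.386). It was chosen after its values were seen, as a partner of the called chains.

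Of 15 matrix ligands tested, NTN4 and CCN2 rose and COL4A2 fell. NTN4, whose product netrin-4 binds laminin gamma chains, had 43.8 ± 0.717 CPM in LARP6 libraries and 38.6 ± 1.06 CPM in control libraries (SD, n = 3 each), a log2 difference of 0.18 ± 0.05 (SE, edgeR adjusted p = 0.0111). COL4A2, a chain of basement membrane collagen, had 122.3 ± 2.41 and 134.5 ± 3.10 CPM (-0.14 ± 0.03, edgeR adjusted p = 0.00266). Both lost their call without LARP6 library 2 (adjusted p = 0.0622 and 0.0614). CCN2, a matricellular integrin ligand, had 111.5 ± 2.06 and 102.5 ± 4.08 CPM (0.12 ± 0.03, edgeR adjusted p = 0.0201) and lost its call without LARP6 library 1 (0.0969), LARP6 library 2 (0.124) or control library 1 (0.182).

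EVL fell among 28 other adaptors tested. EVL, an actin-elongating protein of the Ena/VASP family, had 9.17 ± 0.508 CPM in LARP6 libraries and 11.6 ± 1.04 CPM in control libraries (log2 -0.34 ± 0.09, SE, edgeR adjusted p = 0.0116) and lost its call without LARP6 library 3 (0.0649) or control library 3 (0.124). Of 12 inhibitors and trafficking genes, KRIT1 and RAB21 rose. KRIT1, whose product binds the integrin inhibitor ITGB1BP1, had 10.3 ± 0.336 and 8.02 ± 0.730 CPM (0.37 ± 0.10, edgeR adjusted p = 0.00978) and lost its call without control library 3 (0.1001) and with GC and length offsets (0.29, adjusted p = 0.0689). DESeq2 gave no adjusted p for KRIT1 or EVL. RAB21, a GTPase of integrin endocytosis, differed by 0.13 ± 0.04 (edgeR adjusted p = 0.0348), and by -0.0083 with GC and length offsets (adjusted p = 0.954), and did not pass in DESeq2 (adjusted p = 0.0716). It passed in 2 of the 6 fits without a library, up to an adjusted p of 0.198.

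Of 10 immunoglobulin-type adhesion genes, ALCAM rose and MCAM and ICAM5 fell. ALCAM had 152.1 ± 7.23 CPM in LARP6 libraries and 141.4 ± 7.42 CPM in control libraries (log2 0.11 ± 0.03, SE, edgeR adjusted p = 0.0428) and lost its call without LARP6 library 1 (0.0942), LARP6 library 2 (0.394) or control library 3 (0.334). It did not pass with GC and length offsets either (0.034, edgeR adjusted p = 0.639), nor in DESeq2 (adjusted p = 0.121). MCAM, a receptor of laminin alpha 4, had 43.7 ± 1.42 and 49.6 ± 2.21 CPM (-0.18 ± 0.05, edgeR adjusted p = 0.00701) and lost its call without LARP6 library 1 (0.0863) or control library 3 (0.0615). Of 32 adhesion kinases and GTPase regulators, 0 passed in edgeR, DESeq2 or limma-voom, and 5 were higher and 0 lower at an unadjusted edgeR p below 0.05. The smallest p in that list belonged to ASAP2 and CRK, with log2 differences of 0.14 ± 0.05 and 0.09 ± 0.03 (SE, edgeR adjusted p = 0.0940 and 0.110). Of 4 other integrin chains tested, 0 passed in any of these 3 tools, and 2 had an unadjusted edgeR p below 0.05. They were ITGB2 (-0.14 ± 0.06, edgeR adjusted p = 0.117), the beta 2 chain of leukocyte integrins, and ITGA10 (0.29 ± 0.12, adjusted p = 0.158), a collagen receptor chain. LAMA1, the alpha 1 chain of embryonic laminins, had 1.47 ± 0.526 CPM in LARP6 libraries and 1.61 ± 0.346 CPM in control libraries and did not pass (edgeR adjusted p = 0.795).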

How the data were processed

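RNA of MDA-MB-231 cells was measured in 3 LARP6 and 3 control libraries made with a strand-keeping mRNA kit, per the labels' protocols. Groups and replicate numbers came from the titles. The authors deposited read counts per gene, whole numbers that were tested as deposited, and FPKM values, which are counts the authors scaled by gene length and library size. HISAT2, DESeq2 and GRCh38 are named without versions in the submitters' processing notes. Which tool counted the reads, with which strand setting and gene annotation, is not given in the sources used here. Separate cultures are not stated for the replicates, so their spread, and with it each p-value, may be technical.

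Counts were fitted with edgeR 4.0.16 in R 4.3.3 (its expression filter, TMM scaling, robust quasi-likelihood test, no covariate), with Benjamini-Hochberg adjustment over 16226 genes, and called at an adjusted p below 0.05. Levels varied by 3.23% between libraries of a group (root of the common dispersion). CPM used TMM-scaled library sizes. Standard errors were derived from the log2 difference and its F statistic. Alternatives were other scalings and filters, DESeq2 1.42.0, limma-voom and limma 3.58.1 on log2(FPKM + 1) and log2(FPKM + 0.1), with a filter of 0.1 FPKM in 3 libraries or none, a replicate block, GC and length offsets, and leaving out LARP6 or each library. Shares per longest transcript were added after seeing the data. Transcript length, GC content and positions came from GENCODE v29, which held 97.0% of the gene identifiers, and promoters from RefSeq GRCh38.p14. The scripts were tested on simulated data. Same-numbered libraries correlated at 0.01 to 0.05 and differently numbered ones at -0.063 to 0.029. The labels state no pairing, so the numbers were not taken to pair libraries, and the replicate block was kept as an alternative.

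The members and lists were chosen with earlier results of these data known. Named genes are the members, LARP6 and, from each other list, up to 4 called genes with the smallest p, or 2 where none passed. Some genes of the other lists are counted but not reported here by name. Splicing and LARP6 binding were not analysed here.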

Additional observations from a re-analysis of the deposited data

How the results depend on the processing

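ITGA4 and ITGB6 had too few reads to be tested, while 27 of the 30 tested members had at least 20 CPM on average. Of the 9 called members, only ITGB4 and ICAM1 passed in all 6 fits without a library, and none of the 9 changed sign in any of 20 alternative fits. Of the members, 5 were higher and 4 lower. The higher count was 9 with library size only, 3 with no low-count filter, 1 in DESeq2, 0 on log2(FPKM + 1) with or without a filter, 1 on log2(FPKM + 0.1), 2 with GC and length offsets and 1 at an adjusted p below 0.01. The lower count was 1 with library size only, 2 with no low-count filter, 0 in each FPKM test and 1 at an adjusted p below 0.01. Without single libraries, 1 to 5 members were higher and 1 to 3 lower. Of the other lists, 7 genes were higher and 8 lower. The higher count was 19 with library size only, 4 with no low-count filter, 4 in DESeq2, 0 in each FPKM test, 2 at an adjusted p below 0.01 and 3 to 8 without single libraries. The lower count was 0 in each FPKM test and 5 to 8 without single libraries. The median of the members, 0.034, was 0.060 with library size only, 0.059 on log2(FPKM + 0.1) and 0.0079 with GC and length offsets. The ITGB4 share rose by 1.11 rather than 1.96 percentage points per longest transcript. With the replicate block, 1345 of all genes passed rather than 979, 5 members were higher and 5 lower, and 12 genes of the other lists were higher. With the block and GC and length offsets together, 3 members were higher and the median was 0.0080. The cause of these shifts was not tested.

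Genes that changed sign were all uncalled except RAB21. With library size only, log2 differences turned positive in ITGA1 (0.00078), ITGA3 (0.0082), ITGA5 (0.0044), ITGB5 (0.024) and FLNA (0.011). On log2(FPKM + 1), with or without a filter, the same genes were at 0.00059, 0.0069, 0.0032, 0.022 and 0.0092, and on log2(FPKM + 0.1) at 0.0017, 0.0070, 0.0034, 0.023 and 0.0093. With GC and length offsets, ITGA3 was at 0.012, ITGB5 at 0.0040 and FLNA at 0.0021, and ITGB1 (-0.028), FERMT2 (-0.012), VCL (-0.046) and RAB21 (-0.0083) turned negative. With the replicate block added, these were 0.012, 0.0043, 0.0021, -0.028, -0.012, -0.045 and -0.0076. Without single libraries the range crossed 0, from -0.070 to 0.026 in ITGA1, -0.045 to 0.0073 in ITGA5, -0.029 to 0.038 in ITGB5, -0.0059 to 0.038 in VCL, -0.027 to 0.0033 in FLNA and -0.38 to 0.12 in LAMA1.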
